A study of Mus musculus with 6 samples.

Results

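Hair germ cells from mice with a double knockout of Lef1 and Tcf7 were set against their wild-type counterparts. The comparison used 4 of the 6 RNA-seq libraries of the series. Its members were chosen by sample title, as the 2 libraries titled LEF1_TCF7dKO and the 2 titled WT, and every gene except the spike-ins was examined (46517 genes). All groups were mice that carried Sox9-CreER and the R26-lox-stop-lox-YFP reporter, and the WT group had nothing more. The double knockout also carried Lef1fl/fl and Tcf7-/-, and the remaining 2 libraries (LEF1cKO) carried Lef1fl/fl alone. Mice were 60 days old and of mixed sex per the labels, and cells came from back skin 3 days after the hair was pulled out (depilation), a procedure that starts a new hair cycle. The labels name YFP, CD34, Sca-1, Pcadherin and integrin b1 as sorting markers, without their gates. CreER is a recombinase that needs a drug to act, and here the Sox9 promoter drives it, so Lef1 is removed only in cells in which it acted, which YFP marks. Tcf7 is null in every cell of these animals, including cells outside the follicle, and there was no group with Tcf7-/- alone. The labels do not say whether 2 libraries of a group came from separate animals or pools, so p-values measure only the spread between these libraries, which may be technical.

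LEF1 and TCF7 are members of the LEF/TCF family, DNA-binding proteins that recruit beta-catenin when a Wnt signal is received and corepressors of the TLE family when it is not. The hair germ is a small cluster of progenitors at the base of the resting follicle, between the stem cells of the bulge and the dermal papilla. When growth starts it divides first and gives rise to the matrix, whose cells differentiate into the hair shaft and the inner root sheath. LEF1 is known for its part in hair formation and in the activity of hair keratin genes.

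The double knockout had lower levels of nearly the whole set of genes for DNA replication and mitosis, of the hair-lineage factors of the Dlx and Msx families and of inner root sheath keratins. Many genes of epidermal differentiation, such as Krt1, Krt10 and Krt77, were higher. Of 19640 genes tested, 3540 rose (18.0%) and 3849 fell (19.6%), so that 37.6% of genes passed the threshold in some direction. Counts of list members below are to be read beside these shares. "Rose" and "fell" mean an adjusted p under 0.05 in edgeR's quasi-likelihood test with Benjamini-Hochberg adjustment over all genes. Fold changes below are log2 values of the double knockout minus WT. The value after ± is a standard error (SE), taken as the absolute fold change divided by the square root of the test's F statistic. Levels are in TPM, the length-scaled share of a library's transcripts. The median change was 1.65 among rises and -0.77 among falls, against 0.012 over all genes tested. Falls were more frequent among transcripts abundant in WT. Of protein-coding genes over 100 TPM in WT, 55.5% fell and 5.79% rose, whereas of those under 1 TPM 2.61% fell and 38.3% rose. WT is a side of the comparison, and a gene low in WT could pass the count filter through a knockout group. Part of this split is therefore set by the grouping and the filter, and how much was not tested. Genes that rose made up 6.71% and 6.60% of all TPM in the WT libraries and 16.7% and 16.2% in the double knockout. Genes that fell made up 36.8% and 36.9% in WT and 21.8% and 23.8% in the double knockout. Both sets were picked on these same libraries, so the direction of each shift follows from the choice. Its size also depends on the choice and on the threshold.

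**Figure D1:**
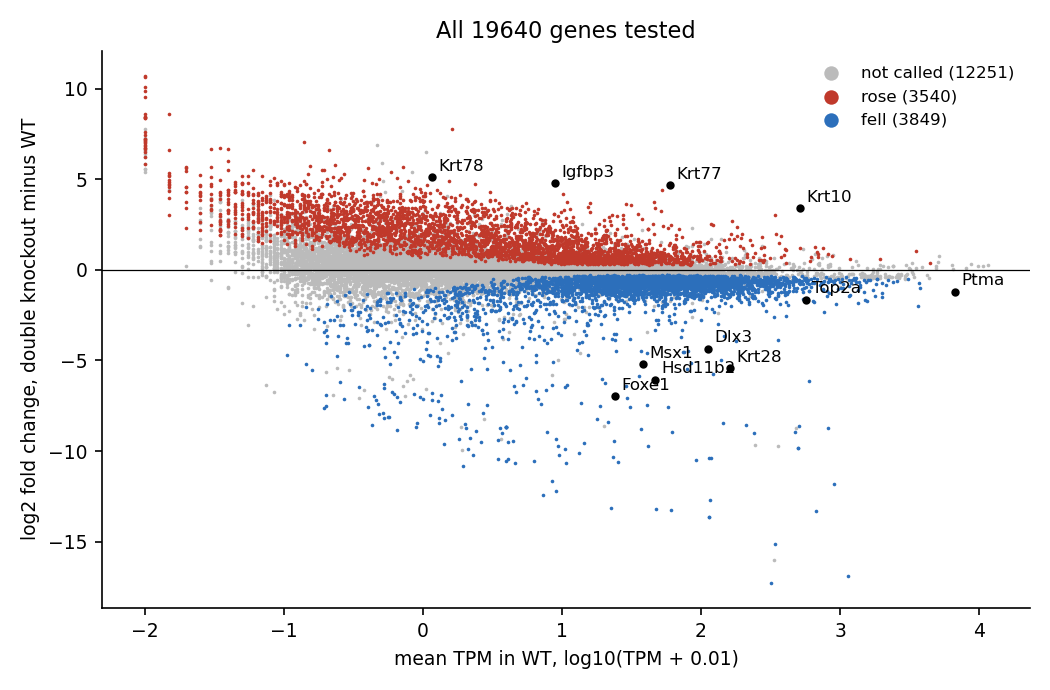
Each point is a gene, placed by its mean TPM in WT (log10 axis after adding 0.01) and by its log2 fold change in the double knockout against WT, with genes that rose in red, genes that fell in blue and the rest in grey. The 3540 rises crowd on the left, at low WT levels, and the 3849 falls on the right. WT levels also enter the fold change, so part of this split is set by the axis and the count filter. Labelled genes other than Ptma are described in the text.

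With 2 libraries a group, the counts depended on which libraries were used. Without WT replicate 1 there were 1427 rises and 1244 falls, without WT replicate 2 there were 958 and 1010, and without double knockout replicate 1 there were 1500 and 1494. A set of 836 rises and 858 falls passed with all libraries and again, in the same direction, each time 1 of the 6 libraries was left out. A call of this kind is said below to hold, and for other named genes the libraries on which the call rested are given. No gene called here that belongs to a list below changed sign under any of the 16 alternative settings.

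Library totals were 40480615 to 63219925 expected counts, and between 14743 and 16032 genes reached 1 TPM. Replicates correlated at 0.986 in WT and 0.974 in the double knockout (log2 CPM, across genes). Xist lay at 309 to 370 TPM in the WT and double knockout libraries and at 0.66 TPM in LEF1cKO replicate 1, which shares the fit. Lef1 (chr3:131110471-131224356, mm10) had 21.4 and 20.4 TPM in WT, 13.5 and 8.37 TPM in LEF1cKO and 9.22 and 9.42 TPM in the double knockout. It fell by 1.27 ± 0.25 (adjusted p = 0.0122), and this call was lost without any 1 of the WT or double knockout libraries. Tcf7 (chr11:52252371-52283014) had 26.9 and 36.0 TPM in WT and 13.7 and 18.0 TPM in the double knockout, and fell by 1.37 ± 0.21 (adjusted p = 0.00641), a call that held. Both transcripts were thus lower but not absent. The labels do not give the deleted exons, so a count over the whole gene does not show whether these transcripts lack them.

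Markers of the sorted cells were present in all libraries. Krt5, a basal keratin, had 4936 and 5128 TPM in WT and 6522 and 8258 TPM in the double knockout, and Krt14, its partner, had 3410 and 3578 against 6699 and 8368 TPM (a rise lost without any 1 of the WT or double knockout libraries, while Krt5 did not pass). Cdh3, which encodes the P-cadherin of the sort, had 134 and 130 TPM in WT and 65.9 and 85.9 TPM in the double knockout, where it fell by 0.93 ± 0.18 (adjusted p = 0.0109; lost without either WT library or double knockout replicate 1). Of the other sorting markers, 2 were higher. Cd34, a bulge marker, had 13.5 and 8.72 TPM in WT and 42.0 and 30.9 TPM in the double knockout (1.54 ± 0.28, adjusted p = 0.00954; lost without WT replicate 2 or double knockout replicate 1). Ly6a, which encodes Sca-1, a marker of the epidermis and upper follicle, had 26.5 and 14.7 against 111 and 97.3 TPM (2.22 ± 0.41, adjusted p = 0.00968; lost without the same libraries). Other bulge markers differed in direction. Nfatc1 rose (lost without any 1 of the WT or double knockout libraries), Tbx1 fell (lost without either WT library) and Foxc1 did not pass. Krt15 rose and Lgr5 fell, as given below. In bulk RNA of sorted cells, fewer cells of a type and less RNA per cell cannot be told apart, and this applies to every level below.

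Markers of cells that the sort should remove were also higher in the double knockout. The summed level of 25 fibroblast and dermal papilla markers was 734 and 419 TPM in WT and 3195 and 2480 TPM in the double knockout, with 18 members higher and 1, Mgp, lower. Col1a1 had 43.0 and 15.2 TPM in WT and 430 and 361 TPM in the double knockout, and Pdgfra had 2.30 and 0.61 against 11.9 and 10.6 TPM (lost without either double knockout library). Of 30 immune markers 17 rose, and their sum was 412 and 292 TPM in WT against 1623 and 1552 TPM. Cd207 of Langerhans cells had 1.12 and 0.84 against 6.54 and 9.34 TPM, whereas the T cell gene Cd3e lay under 1 TPM in all libraries. Of 22 endothelial and mural markers 17 rose, with sums of 148 and 96.3 TPM in WT and 487 and 211 TPM in the double knockout. Pecam1 of endothelial cells had 3.91 and 3.73 TPM in WT and 32.4 and 6.69 TPM in the double knockout, so that replicate 1 stood apart (lost when any library but double knockout replicate 2 was left out). The same replicate was alone in its level of a set for muscle, fat and blood, at 356 TPM against 16.4 to 36.7 TPM in the other 3 libraries. Melanocyte markers summed to 659 and 452 TPM in WT and 316 and 561 TPM in the double knockout, with 1 of 15 members higher and none lower. Of 13 Schwann and Merkel cell markers tested 8 rose and 1 fell, and their sums were 64.6 and 58.2 against 224 and 150 TPM (1 of the 17 listed was at 0 in all 4 libraries; no defining marker was). The part of these cells in the changes above, those of Cd34 and Ly6a included, and in the changes below was not tested. The count of fibroblast markers that rose was 10 without WT replicate 2 and 5 without double knockout replicate 1, and that of endothelial markers was 5, 2 and 7 without WT replicate 1, WT replicate 2 and double knockout replicate 1. The immune count stayed between 13 and 18 when any 1 library was left out. In LEF1cKO the fibroblast sum was 780 and 1382 TPM and the immune sum 488 and 744 TPM.

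**Figure D2:**
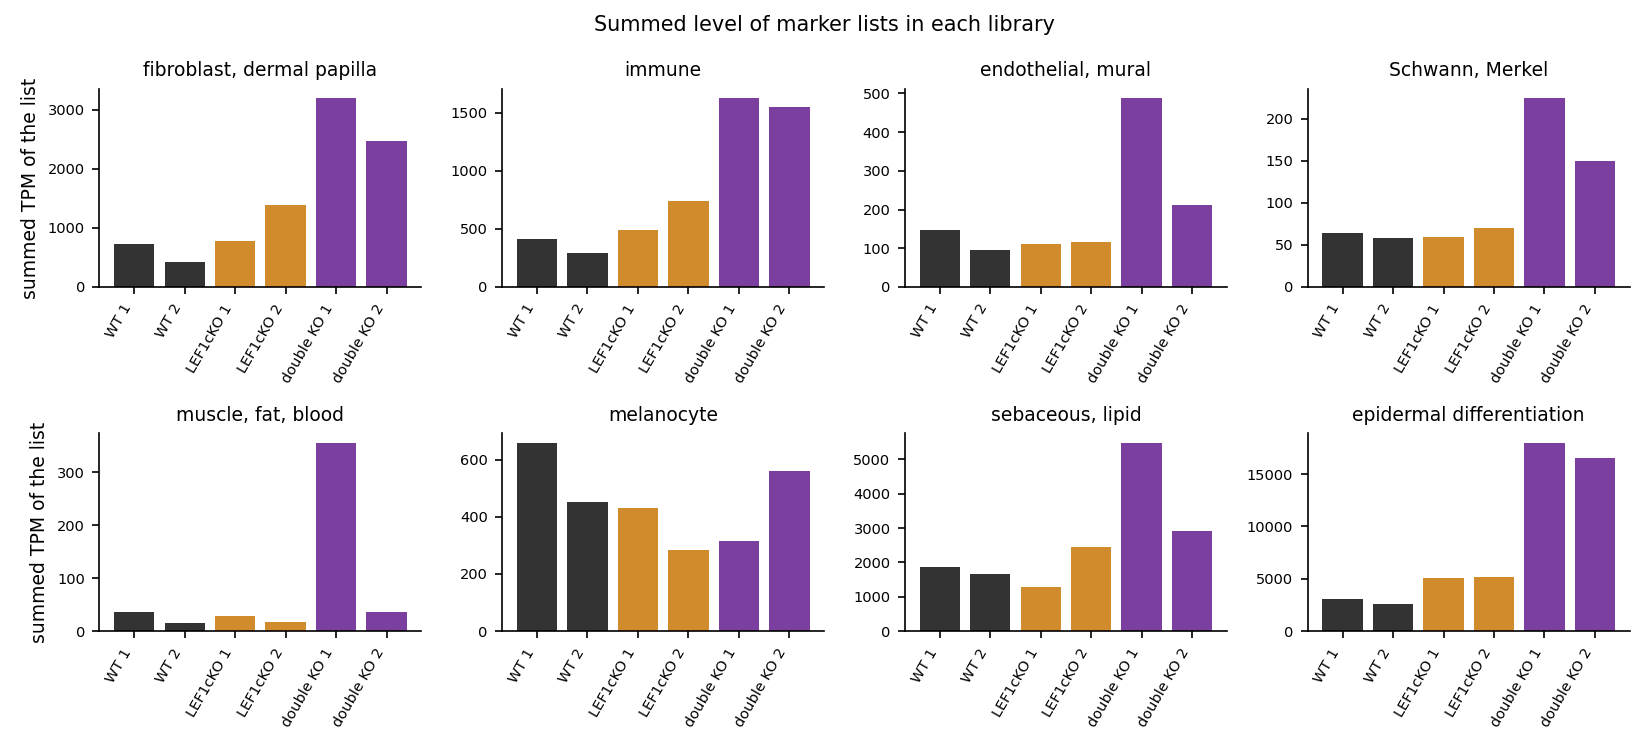
Bars give the summed TPM of all members of a marker list in each of the 6 libraries, WT in black, LEF1cKO in orange and the double knockout in purple. Fibroblast and immune sums are higher in both double knockout libraries (3195 and 2480 TPM, and 1623 and 1552 TPM), while the muscle, fat and blood sum is high in replicate 1 alone (356 TPM).

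Homeobox genes of the Dlx and Msx families, which act in the matrix and its descendants, fell nearly throughout. Of 8 tested, 6 fell and all 6 calls held, with a family median of -4.06. Dlx3, a factor required for hair shaft and root sheath differentiation, had 123 and 102 TPM in WT and 5.52 and 6.61 TPM in the double knockout (-4.34 ± 0.38, adjusted p = 0.00265). Dlx2 had 83.3 and 67.3 against 2.57 and 4.25 TPM (-4.55 ± 0.58, adjusted p = 0.00455), and its neighbour Dlx1 had 22.4 and 16.9 against 1.72 and 2.56 TPM (-3.78 ± 0.53, adjusted p = 0.00549). These 2 genes lie next to each other on chromosome 2, as Dlx3 and Dlx4 do on chromosome 11. Dlx4 had 15.1 and 15.6 against 0.60 and 0.67 TPM (-4.72 ± 0.63, adjusted p = 0.00489). Msx1 had 45.5 and 30.8 TPM in WT and 1.11 and 1.17 TPM in the double knockout (-5.20 ± 0.65, adjusted p = 0.0044), and Msx2, a factor of the matrix, had 60.4 and 57.4 against 7.26 and 11.4 TPM (-2.76 ± 0.40, adjusted p = 0.0058). For each of these 6 genes both double knockout libraries lay below both WT libraries, as they did in 30.7% of all genes tested. Dlx5, at 3.55 and 3.03 against 5.82 and 5.18 TPM, did not pass the threshold.

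In LEF1cKO, Dlx3 had 124 and 64.7 TPM, Dlx2 had 97.2 and 36.4 TPM and Msx2 had 61.8 and 30.5 TPM. Replicate 1 of that group thus lay at or above the WT libraries for these genes and replicate 2 below them, and all its values were above those of the double knockout.

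Other hair-lineage regulators fell too. Foxe1, a forkhead factor known for its part in hair follicle orientation, had 29.5 and 18.4 TPM in WT and 0.03 and 0.38 TPM in the double knockout (-6.96 ± 0.96, adjusted p = 0.00519), where it had 2 and 27 expected counts. Cux1, a homeodomain repressor expressed in the inner root sheath lineage, had 340 and 331 TPM in WT and 67.4 and 68.0 TPM in the double knockout (-2.60 ± 0.35, adjusted p = 0.00493). Sox4 had 109 and 113 against 28.1 and 46.7 TPM (-1.70 ± 0.28, adjusted p = 0.00768). Myb, a factor of dividing progenitors, had 45.2 and 36.9 against 1.89 and 1.91 TPM (-4.58 ± 0.54, adjusted p = 0.00398). All 4 calls held. Lhx2, a hair germ and bulge factor, had 337 and 381 against 114 and 198 TPM (-1.38 ± 0.27, adjusted p = 0.0118; lost without WT replicate 2). Against this direction Foxn1, which controls hair keratin genes in the differentiating cortex, had 1.30 and 1.51 TPM in WT and 5.05 and 5.64 TPM in the double knockout (1.79 ± 0.23, adjusted p = 0.00446), a call that held. Gata3, an inner root sheath factor, at 127 and 147 against 86.9 and 82.9 TPM, did not pass, and neither did Hoxc13 at 39.2 and 39.9 against 22.5 and 35.2 TPM.

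The summed level of 42 hair shaft and root sheath genes was 516 and 479 TPM in WT and 175 and 186 TPM in the double knockout. Of these 42 genes 30 were tested, and 14 fell and 3 rose with a median of -2.47. The count of falls stayed between 10 and 16 when any 1 library was left out, and 8 calls held. Krt28, an inner root sheath keratin of the type I cluster on chromosome 11, had 175 and 146 TPM in WT, 147 and 43.9 TPM in LEF1cKO and 4.63 and 3.60 TPM in the double knockout (-5.42 ± 0.65, adjusted p = 0.00408). Its neighbour Krt27 had 16.3 and 12.3 against 1.16 and 1.85 TPM (-3.37 ± 0.49, adjusted p = 0.0058). Krt25, of the same cluster, had 1443 and 1008 expected counts in the WT libraries and 3 in each double knockout library (adjusted p = 0.00616; lost without double knockout replicate 1). The type II partners on chromosome 15 followed the same pattern. Krt73 had 6.22 and 6.81 against 0.18 and 0.36 TPM (-4.70 ± 0.58, adjusted p = 0.00421) and Krt71 had 16.0 and 9.40 against 0.57 and 0.72 TPM (-4.43 ± 0.72, adjusted p = 0.00734; lost without double knockout replicate 1).

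Krt75, the keratin of the companion layer, had 10.3 and 6.99 TPM in WT and 0.20 and 0.36 TPM in the double knockout (-5.08 ± 0.61, adjusted p = 0.00408). Krt35, a keratin of the early hair shaft, had 6.60 and 4.98 against 0.18 and 0.72 TPM (-3.78 ± 0.66, adjusted p = 0.00866). Padi3, a deiminase that modifies the root sheath protein trichohyalin, had 2.48 and 1.92 against 0.05 and 0.05 TPM (-5.49 ± 0.78, adjusted p = 0.00553). The calls of Krt28, Krt27, Krt73, Krt75, Krt35 and Padi3 held. Trichohyalin itself, Tchh, at 2.83 and 4.48 against 3.01 and 3.51 TPM, did not pass. The 3 members that rose were Krt32, Selenbp1 and Foxn1. Krt32, of the hair cuticle, had 1.62 and 1.39 against 7.89 and 5.61 TPM (2.01 ± 0.32, adjusted p = 0.00707; lost without WT replicate 2).

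**Figure D3:**
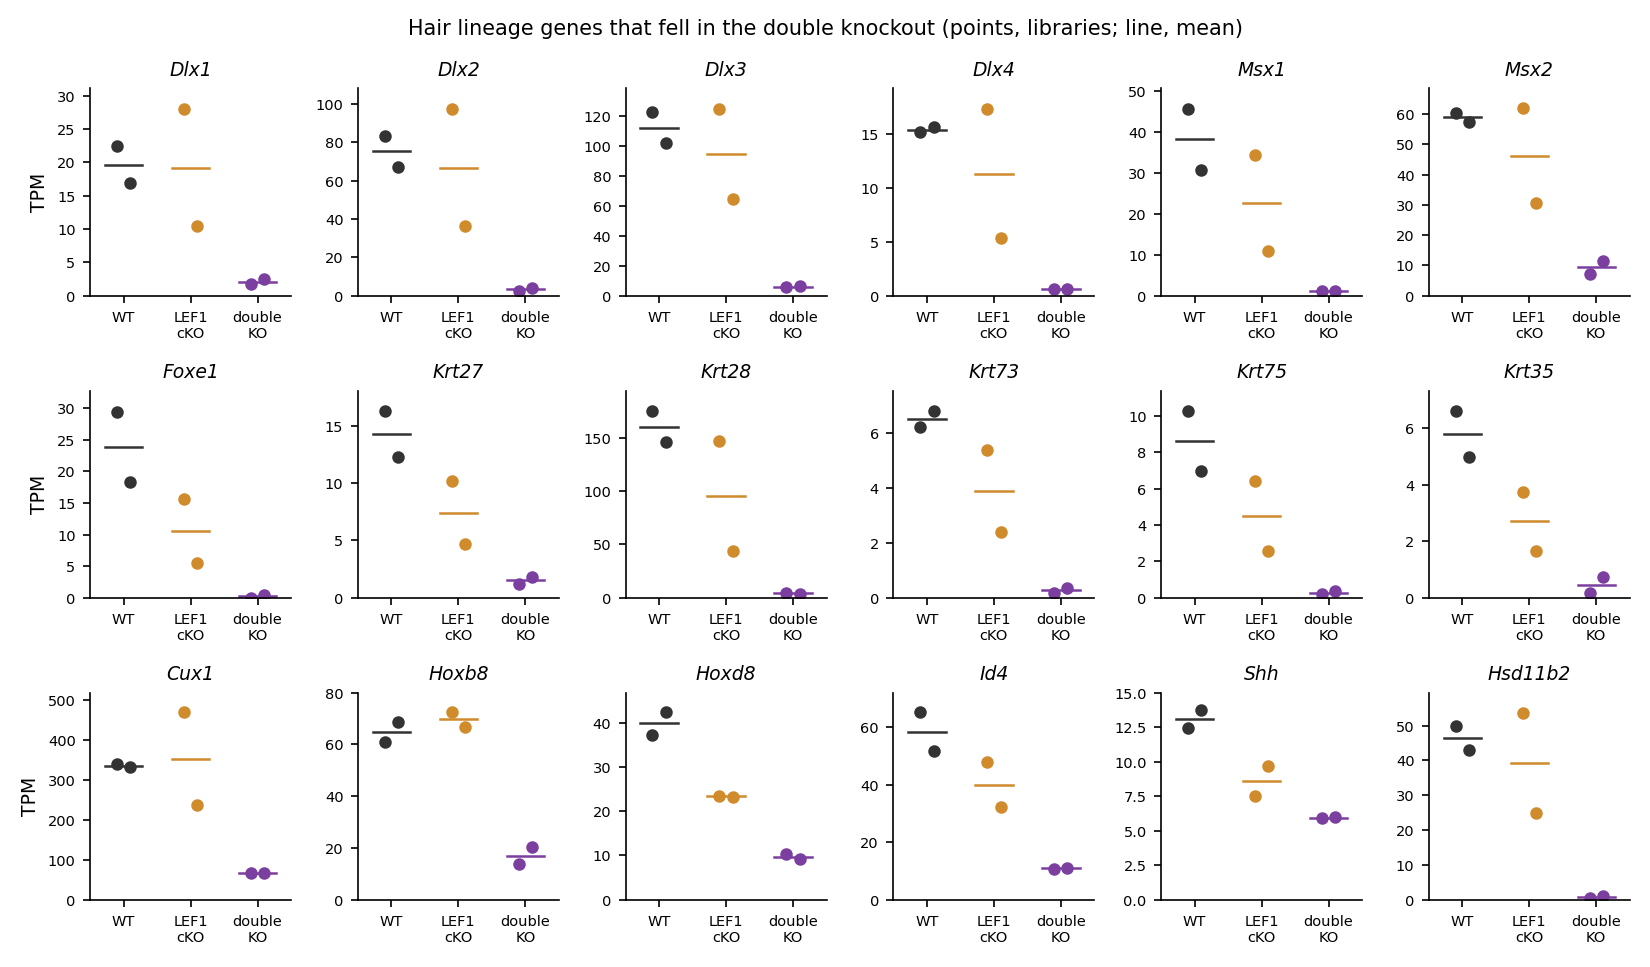
Each panel gives the TPM of a gene that fell in the double knockout, with a point for each library and a line at the mean of each group (2 libraries each; vertical axes start at 0 and differ between panels). In every panel both double knockout libraries lie below both WT libraries, and the LEF1cKO libraries often lie far apart from each other, as for Krt28 (147 and 43.9 TPM). The genes shown were chosen as falls, and both double knockout libraries lay below both WT libraries in 30.7% of all genes tested.

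Of 43 genes of the hair germ and matrix, 22 fell and 6 rose, with a median of -0.61, and 11 falls held. The count of falls was 15, 11 and 13 without WT replicate 1, WT replicate 2 and double knockout replicate 1. Shh, the ligand that drives hair growth, had 12.5 and 13.8 TPM in WT, 7.55 and 9.72 TPM in LEF1cKO and 5.89 and 5.99 TPM in the double knockout (-1.28 ± 0.15, adjusted p = 0.00408; held). Edar, the receptor for ectodysplasin that acts in hair placodes, had 13.8 and 15.9 against 6.47 and 5.34 TPM (-1.47 ± 0.28, adjusted p = 0.0114; lost without WT replicate 2 or either double knockout library). The 6 rises included Foxn1, Ovol1, Bmp2, Wnt10a and Wnt10b.

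Within the hedgehog pathway, in which SHH binds the receptor PTCH1 and thereby releases SMO to activate the GLI factors, 8 of 19 genes fell and 1 rose. Smo had 128 and 135 TPM in WT and 61.0 and 75.7 TPM in the double knockout (-1.08 ± 0.14, adjusted p = 0.0047; held). Hhip, a target and decoy receptor, had 3.46 and 4.65 against 0.94 and 0.50 TPM (-2.84 ± 0.26, adjusted p = 0.00271; held), while its levels in LEF1cKO were 10.5 and 8.58 TPM, above WT. Gli1 had 143 and 161 against 57.2 and 102 TPM (-1.07 ± 0.29, adjusted p = 0.0318; lost without either WT library or double knockout replicate 1). Ptch1 had 131 and 161 against 48.7 and 80.2 TPM (-1.32 ± 0.27, adjusted p = 0.0135; lost without WT replicate 2). Replicate 1 was the lower of the double knockout libraries for Smo, Gli1 and Ptch1. Boc, a coreceptor, rose from 28.8 and 30.7 to 43.6 and 63.7 TPM (0.71 ± 0.22, adjusted p = 0.0448; lost without either WT library or double knockout replicate 2). The count of falls was 5, 3 and 4 without WT replicate 1, WT replicate 2 and double knockout replicate 1.

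The other 2 members of the LEF/TCF family were lower in the double knockout. Tcf7l1, known in bulge cells as a repressor of Wnt targets, had 32.2 and 33.7 TPM in WT and 11.1 and 11.6 TPM in the double knockout (-1.81 ± 0.18, adjusted p = 0.00331; held). Tcf7l2 had 23.9 and 24.2 against 15.8 and 15.5 TPM (-0.75 ± 0.11, adjusted p = 0.00633; lost without WT replicate 2). Ctnnb1, which encodes beta-catenin, had 810.5 and 859 against 609 and 636 TPM (-0.59 ± 0.15, adjusted p = 0.0244; lost without any 1 of the WT or double knockout libraries).

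Wnt target and feedback genes did not move together. Of 26 tested, 8 rose and 10 fell with a median of 0.06, which lay between -0.12 and 0.23 over the alternative settings. Axin2, a feedback inhibitor often used as a Wnt reporter, had 25.8 and 27.9 TPM in WT, 21.5 and 27.4 TPM in LEF1cKO and 38.7 and 41.3 TPM in the double knockout. It rose by 0.42 ± 0.12 (adjusted p = 0.0345), a call lost without any 1 of the WT or double knockout libraries. Notum, a secreted enzyme that inactivates Wnt ligands, had 2.32 and 2.98 against 9.12 and 9.92 TPM (1.91 ± 0.31, adjusted p = 0.00739; held). Lgr4, a receptor for R-spondins, had 98.1 and 96.5 against 31.5 and 38.1 TPM (-1.59 ± 0.21, adjusted p = 0.00489; held). Lgr5, a related receptor and hair germ marker, had 82.1 and 73.7 against 32.8 and 50 TPM (-1.07 ± 0.25, adjusted p = 0.0208; lost without either WT library or double knockout replicate 1). Ccnd1 had 117 and 119 against 54.1 and 74.6 TPM (-1.0 ± 0.17, adjusted p = 0.00833; lost without WT replicate 2). Rnf43, at 31.9 and 33.0 against 29.2 and 32.6 TPM, did not pass. The count of rises was 2, 1, 3 and 3, and of falls 7, 4, 5 and 6, without each WT and then each double knockout library in turn.

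Among Wnt ligands, receptors and secreted inhibitors 15 of 54 rose and 13 fell, with a median of 0.01 that lay between -0.08 and 0.16 over the settings. Wnt3 had 2.76 and 3.09 TPM in WT, 4.43 and 9.30 TPM in LEF1cKO and 28.6 and 34.0 TPM in the double knockout (3.28 ± 0.34, adjusted p = 0.0034). Wnt7a had 0.19 and 0.73 against 7.80 and 11.2 TPM (3.93 ± 0.68, adjusted p = 0.00852). Wnt6 went the other way, with 38.03 and 38.9 against 13.0 and 17.3 TPM (-1.52 ± 0.20, adjusted p = 0.00461). These 3 calls held. Wnt10b, a ligand of the hair germ, had 7.45 and 9.07 against 14.3 and 19.6 TPM (0.91 ± 0.22, adjusted p = 0.0225; lost without either WT library or double knockout replicate 2), and Wnt4, at 37.9 and 39.8 against 48.0 and 47.9 TPM, did not pass. The frizzled receptors that passed were all lower. Fzd2 had 55.7 and 54.4 against 19.1 and 29.9 TPM (-1.30 ± 0.22, adjusted p = 0.00775; held). Fzd1 had 130 and 119 against 26.0 and 29.0 TPM (-2.31 ± 0.37, adjusted p = 0.00713; lost without double knockout replicate 1).

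Secreted inhibitors of the pathway differed in direction. Sfrp1 had 91.6 and 74.8 TPM in WT and 16.7 and 21.6 TPM in the double knockout (-2.26 ± 0.21, adjusted p = 0.00286; held). Dkk2 had 0.24 and 0.12 against 4.65 and 2.59 TPM (4.20 ± 0.51, adjusted p = 0.00417; held). Porcn, the enzyme that attaches a lipid to Wnt ligands, had 43.9 and 47.1 against 17.5 and 22.2 TPM (-1.28 ± 0.25, adjusted p = 0.0113; lost without WT replicate 2 or double knockout replicate 1). Over the 54 genes the rises numbered 5, 4, 6 and 9 and the falls 6, 7, 3 and 10 without each WT and then each double knockout library in turn.

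Hox genes, which encode positional identity along the body, fell in 13 of 32 cases and rose in 2. The falls were mostly in the Hoxb cluster on chromosome 11, where 8 of 9 genes tested fell and 3 of these calls held. The Hoxb median was -1.01, against -0.18, -0.09 and -0.58 in the Hoxa, Hoxc and Hoxd clusters; these differences were not tested. Hoxb8 had 61.0 and 68.7 TPM in WT, 72.6 and 66.9 TPM in LEF1cKO and 13.7 and 20.5 TPM in the double knockout (-2.11 ± 0.22, adjusted p = 0.00343). Hoxb6 had 53.9 and 56.5 against 15.3 and 17.5 TPM (-1.84 ± 0.16, adjusted p = 0.00271), and Hoxb2 had 32.2 and 33.9 against 12.8 and 16.3 TPM (-1.33 ± 0.16, adjusted p = 0.00402). Hoxd8 on chromosome 2 had 37.2 and 42.5 TPM in WT, 23.3 and 23.3 TPM in LEF1cKO and 10.3 and 9.11 TPM in the double knockout (-2.31 ± 0.13, adjusted p = 0.00115). These calls held, as did that of Hoxa5. Hoxa7, at 36.9 and 40.0 against 48.6 and 48.8 TPM, did not pass. The count of falls was 7 and 5 without WT replicate 1 and WT replicate 2. In several of these clusters genes overlap or lie close to antisense transcripts, and the sources used here do not say whether counting used strand.

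The letters CTTTGAT, the core that LEF/TCF proteins recognise, were searched on both strands (as CTTTGAT or ATCAAAG) in RefSeq promoters of build GRCm38.p6 that run from 250 bases before the start site to 50 after it. They were present in 3.73% of all 32851 promoters, in 2.59% of promoters of genes tested, in 2.63% of genes that rose, in 2.72% of genes that fell and in 2.52% of genes not called. The share was 3.13% and 3.12% among rises and falls of 2 or more on the log2 scale, and 3.48% and 2.7% among rises and falls that held. These differences were not tested, and a match here is only a description of the letters. Of the genes considered for naming, 240 had a promoter in the table and 8 held the letters. The promoters of 3 of these, picked after their values were seen, are shown because they carry the letters in genes that changed in either direction: Hoxd8 (chr2:74704365-74704664, plus strand) with matches that begin 153 and 143 bases before the start, Edar (chr10:58675647-58675946, minus strand) with 1 that begins 233 bases before it, and Sox6 (chr7:115995037-115995336, minus strand) with 1 that begins 64 bases before it. Sequences run 5′ to 3′ on the strand of the gene, and capitals mark the matches.
Hoxd8: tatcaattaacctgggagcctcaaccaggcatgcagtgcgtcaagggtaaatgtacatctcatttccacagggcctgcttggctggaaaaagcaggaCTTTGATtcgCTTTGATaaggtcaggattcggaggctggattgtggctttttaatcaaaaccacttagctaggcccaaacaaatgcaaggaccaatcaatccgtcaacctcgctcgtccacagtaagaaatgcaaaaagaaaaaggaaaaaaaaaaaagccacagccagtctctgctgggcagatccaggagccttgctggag
Edar: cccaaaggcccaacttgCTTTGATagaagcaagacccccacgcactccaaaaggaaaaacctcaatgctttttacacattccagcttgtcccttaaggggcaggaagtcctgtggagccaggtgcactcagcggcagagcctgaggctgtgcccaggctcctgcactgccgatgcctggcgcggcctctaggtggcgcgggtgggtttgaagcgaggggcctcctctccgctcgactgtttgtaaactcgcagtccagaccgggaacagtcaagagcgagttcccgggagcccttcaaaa
Sox6: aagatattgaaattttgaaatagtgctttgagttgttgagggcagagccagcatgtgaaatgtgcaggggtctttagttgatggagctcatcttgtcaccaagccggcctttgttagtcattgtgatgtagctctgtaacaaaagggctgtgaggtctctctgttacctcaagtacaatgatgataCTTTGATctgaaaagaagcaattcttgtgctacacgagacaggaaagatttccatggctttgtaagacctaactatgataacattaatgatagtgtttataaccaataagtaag
Hoxd8 and Edar fell, as described above. Sox6, a factor with parts in several lineages, rose from 0.96 and 0.82 to 7.20 and 4.95 TPM (2.60 ± 0.29, adjusted p = 0.00366; held).

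Every one of 68 genes of mitosis and the spindle fell, with a median of -1.28 and a range of -1.81 to -0.64. When any 1 library was left out 62 to 68 of them passed, and 61 calls held. Top2a, a topoisomerase of dividing cells, had 577 and 559 TPM in WT, 583 and 401 TPM in LEF1cKO and 200 and 209 TPM in the double knockout (-1.64 ± 0.22, adjusted p = 0.00498). Cdk1, the kinase of mitotic entry, had 303 and 284 against 102 and 103 TPM (-1.65 ± 0.18, adjusted p = 0.0035). The widest change of the set was in Bub1, a spindle checkpoint kinase, with 57.4 and 53.4 against 18.7 and 15.5 TPM (-1.81 ± 0.17, adjusted p = 0.00276). Transcripts of the set were reduced but remained abundant, with a summed level of 6585 and 6409 TPM in WT and 2933 and 2739 TPM in the double knockout.

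Of 61 DNA replication genes 57 fell and none rose, with a median of -1.08, and 41 to 59 fell when any 1 library was left out. Mcm10, which helps to start replication, had 39.3 and 41.5 TPM in WT and 16.0 and 15.9 TPM in the double knockout (-1.48 ± 0.16, adjusted p = 0.00354). Tk1, a thymidine kinase, had 239 and 243 against 92.5 and 96.5 TPM (-1.46 ± 0.10, adjusted p = 0.00175).

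Among 35 G1 cyclins, cell cycle inhibitors and factors of the E2F and Myc families, 22 fell and 6 rose (median -0.66), and the falls numbered 10, 10 and 11 without WT replicate 1, WT replicate 2 and double knockout replicate 1. Cdk4, the partner of D cyclins, had 830 and 841 TPM in WT and 315 and 412 TPM in the double knockout (-1.28 ± 0.15, adjusted p = 0.00408). Ccnd2 had 268 and 244 against 87.7 and 81.4 TPM (-1.70 ± 0.22, adjusted p = 0.0046), with 212 and 140 TPM in LEF1cKO. Cdkn1a, which encodes the inhibitor p21, went up from 85.2 and 90.8 to 286 and 239 TPM (1.42 ± 0.11, adjusted p = 0.00229). These 3 calls held. Cdkn1b, which encodes the related inhibitor p27, went down from 82.8 and 75.9 to 43.7 and 49.3 TPM (-0.94 ± 0.21, adjusted p = 0.0179; lost without any 1 of the WT or double knockout libraries). The Myc genes split. Myc rose from 66.3 and 79.7 to 135 and 151 TPM (0.82 ± 0.21, adjusted p = 0.025; lost without any 1 of the WT or double knockout libraries), whereas Mycn fell from 49.0 and 54.3 to 11.8 and 28 TPM (-1.51 ± 0.37, adjusted p = 0.0242; lost without either WT library).

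Ribosome biogenesis genes fell in 36 of 51 cases and none rose (median -0.49), but this count rested on single libraries, since it was 6, 4, 6 and 24 without each WT and then each double knockout library in turn. Npm1, a nucleolar chaperone, had 1779 and 1662 TPM in WT and 845 and 961 TPM in the double knockout (-1.09 ± 0.16, adjusted p = 0.006; held). Chromatin genes of DNA methylation and the polycomb complexes gave 18 falls and 6 rises among 38 (median -0.40; 9, 6 and 8 falls without WT replicate 1, WT replicate 2 and double knockout replicate 1). Ezh2, a histone methyltransferase, had 134 and 143 against 76.6 and 79.9 TPM (-1.08 ± 0.16, adjusted p = 0.0063), and Uhrf1, which maintains DNA methylation and was also counted with replication, had 219 and 242 against 96.4 and 111 TPM (-1.33 ± 0.17, adjusted p = 0.00469). Cbx7 rose from 5.56 and 5.21 to 14.2 and 15.04 TPM (1.34 ± 0.17, adjusted p = 0.00426). These 3 calls held.

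**Figure D4:**
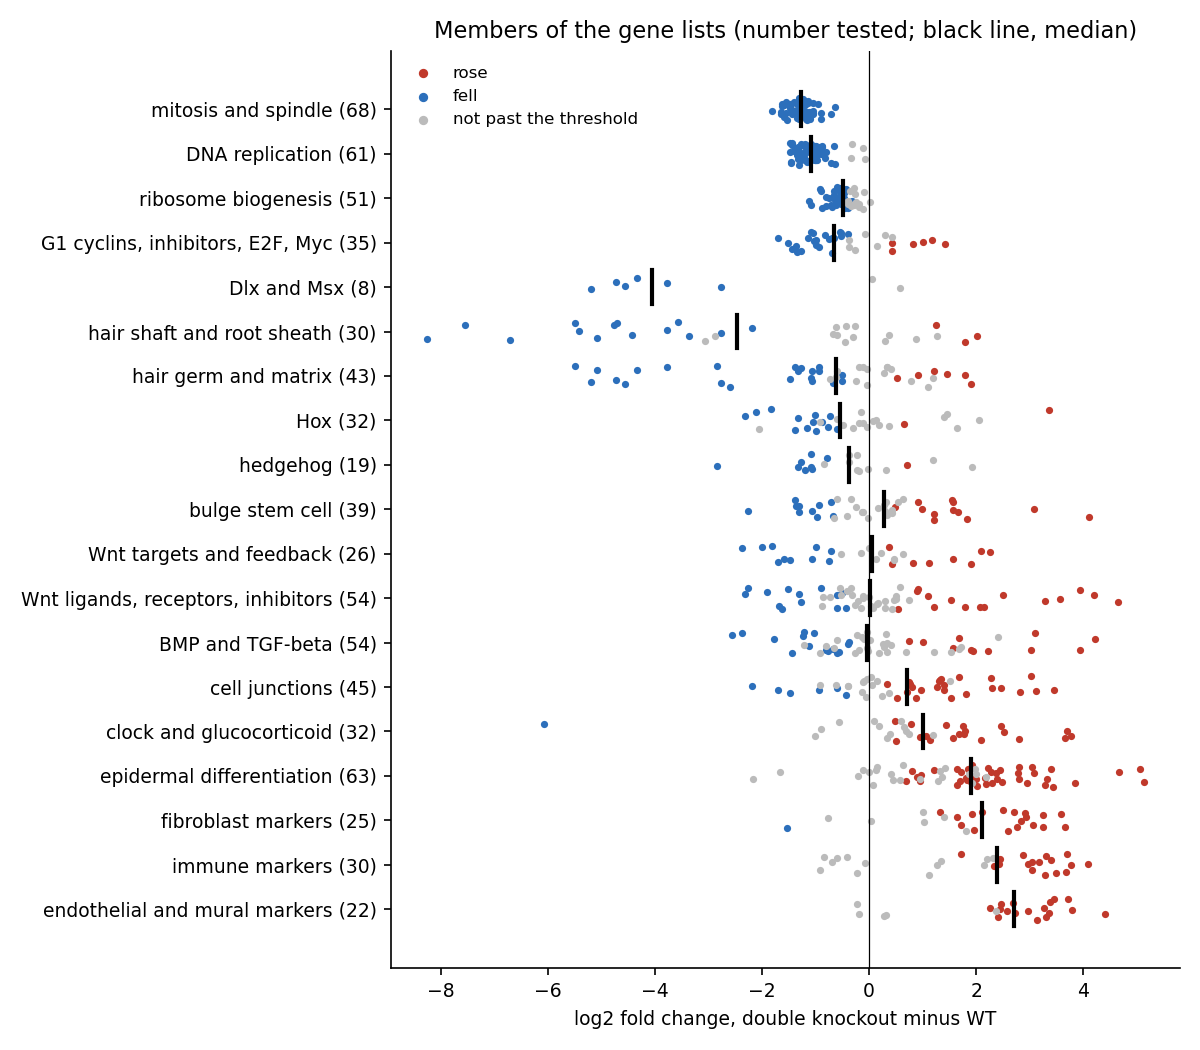
Each point is a tested gene of the list named at the left, placed by its log2 fold change in the double knockout against WT, red where it rose, blue where it fell and grey where it did not pass the threshold, and black lines are medians. Mitosis (median -1.28) and replication (-1.08) genes lie together left of 0, Wnt targets lie on both sides (0.06), and epidermal differentiation genes (1.91) and markers of other cell types lie to the right.

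Genes of epidermal differentiation rose in most cases. Of 63 tested 41 rose and none fell, with a median of 1.91, and 31 to 49 rose when any 1 library was left out. Krt10 and Krt1, the keratin pair of the suprabasal epidermis, were among the most abundant transcripts of the double knockout. Krt10 had 587 and 437 TPM in WT, 1493 and 1440.0 TPM in LEF1cKO and 5916 and 5887 TPM in the double knockout (3.39 ± 0.22, adjusted p = 0.00142). Krt1 had 367 and 315 against 3181 and 2996 TPM (3.04 ± 0.16, adjusted p = 0.00108). Krt77, a type II keratin next to Krt1 on chromosome 15, had 74.7 and 44.5 TPM in WT, 382 and 418 TPM in LEF1cKO and 1701 and 1631 TPM in the double knockout (4.67 ± 0.28, adjusted p = 0.00133). The widest change was in Krt78, of the same gene cluster, with 1.30 and 1.01 against 42.6 and 46.2 TPM (5.13 ± 0.20, adjusted p = 0.000576). For these 4 genes both double knockout libraries lay above both WT libraries, as they did in 43.4% of all genes tested, and the 4 calls held.

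The rises included regulators, envelope proteins and lipid genes of epidermal differentiation. Grhl3, a factor of barrier formation, had 5.09 and 5.12 TPM in WT and 29.2 and 23.4 TPM in the double knockout (2.22 ± 0.15, adjusted p = 0.00153), and Klf4, a second barrier factor, had 187 and 214 against 539 and 481 TPM (1.21 ± 0.14, adjusted p = 0.00376). Genes of the spinous and granular layers also rose. Ppl, which encodes the cornified envelope protein periplakin, had 22.2 and 22.9 against 134 and 143 TPM (2.48 ± 0.12, adjusted p = 0.000874). Sbsn had 204 and 159 against 881 and 823 TPM (2.36 ± 0.15, adjusted p = 0.00145). Abca12, the lipid transporter of lamellar granules, had 4.51 and 4.04 against 38.5 and 25.1 TPM (2.80 ± 0.28, adjusted p = 0.0034), and the lipoxygenase Alox12b had 0.73 and 0.66 against 6.89 and 8.14 TPM (3.29 ± 0.38, adjusted p = 0.00397). All these calls held. Members that did not pass included Lor, which encodes loricrin, at 8.85 and 6.05 against 24.2 and 18.0 TPM, and Sprr1a at 99.4 and 55.9 against 274 and 155 TPM.

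**Figure D5:**
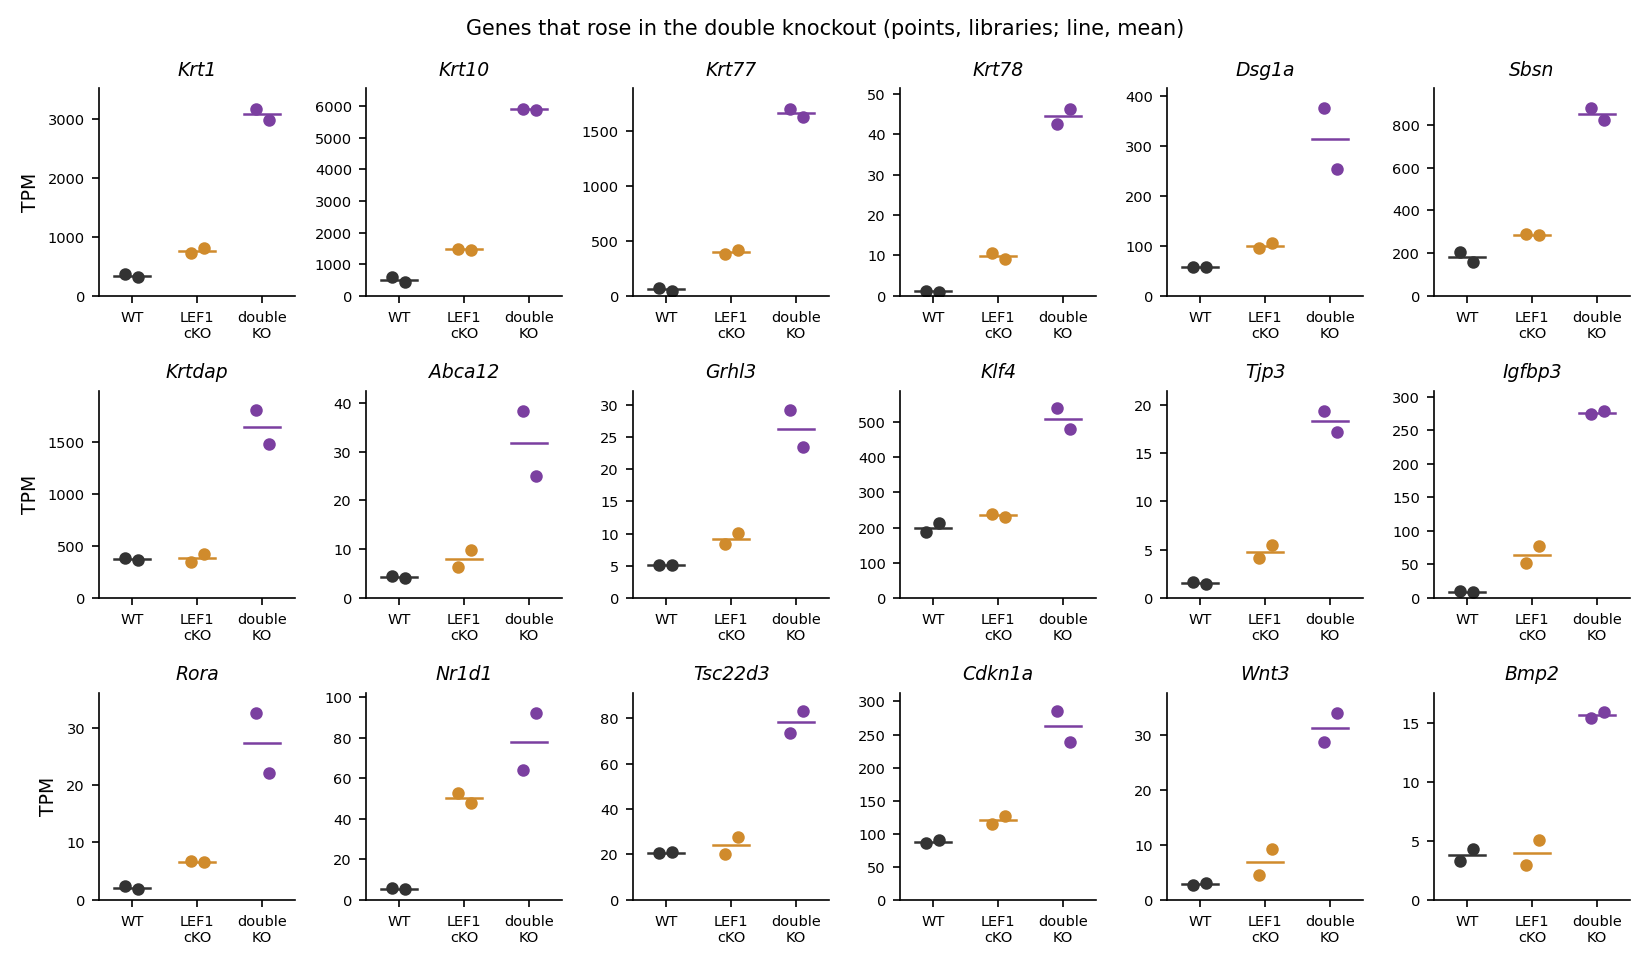
Each panel gives the TPM of a gene that rose in the double knockout, with a point for each library and a line at the mean of each group (2 libraries each; vertical axes start at 0 and differ between panels). Both double knockout libraries lie above all WT and LEF1cKO libraries in all 18 panels. The genes shown were chosen as rises, and both double knockout libraries lay above both WT libraries in 43.4% of all genes tested. The gap to LEF1cKO is narrow for Nr1d1, at 52.8 and 47.7 against 64.0 and 92.3 TPM.

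Cell junction genes rose in 24 of 45 cases and fell in 6, with a median of 0.71, and rises numbered 15, 13, 17 and 21 and falls 1, 1, 2 and 3 without each WT and then each double knockout library in turn. Dsg1a, the desmoglein of differentiated layers, had 58.4 and 57.2 TPM in WT and 377 and 254 TPM in the double knockout (2.30 ± 0.19, adjusted p = 0.00245), and was also counted with differentiation. Pkp1, a plakophilin, had 176 and 167 against 638 and 589 TPM (1.68 ± 0.17, adjusted p = 0.00337), and Jup, or plakoglobin, had 229 and 237 against 708 and 642 TPM (1.39 ± 0.12, adjusted p = 0.00271). Of tight junction genes, Tjp3 had 1.65 and 1.38 against 19.4 and 17.3 TPM (3.46 ± 0.19, adjusted p = 0.00108). These 4 calls held. The cadherins moved apart. Cdh1, or E-cadherin, rose from 126 and 127 to 240 and 233 TPM (0.76 ± 0.14, adjusted p = 0.0111; lost without either WT library or double knockout replicate 1), while Cdh3 fell. Gja1, a gap junction gene, fell from 636 and 634 to 235 and 195 TPM (-1.70 ± 0.38, adjusted p = 0.0174; lost without any 1 of the WT or double knockout libraries).

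Basement membrane and adhesion genes changed in both directions (19 rises and 12 falls of 46, median 0.23). Laminins fell in some cases and rose in others. The collagen IV gene Col4a1 had 213 and 202 TPM in WT and 81.8 and 81.6 TPM in the double knockout (-1.50 ± 0.13, adjusted p = 0.00271), and Lamb1 had 98.6 and 91.9 against 38.8 and 38.4 TPM (-1.35 ± 0.20, adjusted p = 0.00618). The laminin gene Lamb3 rose from 52.9 and 53.3 to 92.6 and 115 TPM (0.86 ± 0.16, adjusted p = 0.0102; lost without either WT library). The integrin Itgb6 had 21.2 and 14.2 against 3.65 and 5.72 TPM (-2.03 ± 0.28, adjusted p = 0.00516). Col17a1, the hemidesmosome collagen that anchors keratinocytes, went up from 227 and 219 to 734 and 844 TPM (1.66 ± 0.21, adjusted p = 0.00455). The calls of Col4a1, Lamb1, Itgb6 and Col17a1 held. Rises numbered 6, 4 and 10 without WT replicate 1, WT replicate 2 and double knockout replicate 1, and falls numbered 7, 5 and 7.

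Bulge stem cell genes gave 12 rises and 10 falls of 39, with a median of 0.27 that lay between -0.04 and 0.39 over the settings. Among the rises were Krt15, a bulge keratin, with 760 and 746 TPM in WT and 1438 and 2310.0 TPM in the double knockout (1.21 ± 0.29, adjusted p = 0.0225; lost without either WT library or double knockout replicate 2), and Tgm5 with 8.82 and 12.2 against 32.0 and 49.6 TPM (1.82 ± 0.30, adjusted p = 0.00781; held). Among the falls were Sox9, the gene whose promoter drives the recombinase, with 52.3 and 59.6 against 33.5 and 41.7 TPM (-0.71 ± 0.16, adjusted p = 0.0198; lost without either WT library or double knockout replicate 1), and Nfib with 136 and 136 against 76.3 and 69.2 TPM (-0.98 ± 0.14, adjusted p = 0.00531; held). Rises numbered 6, 3, 5 and 7 without each WT and then each double knockout library in turn, and falls numbered 6 and 4 without WT replicates 1 and 2. Of 32 genes of the upper follicle and basal epidermis 14 rose and 1, Krt17, fell, and the rises numbered 8, 5, 7 and 9 in the same order. Ly6d had 293 and 256 against 1034 and 1106 TPM (1.83 ± 0.18, adjusted p = 0.0034; held). The isthmus gene Lrig1, at 260 and 254 against 237 and 295 TPM, did not pass, and neither did Plet1 and Krt79.

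BMP signals restrain the resting follicle, and TGF-beta signals counteract them in the hair germ. Across both pathways 11 of 54 genes rose (20.4%) and 15 fell (27.8%), against 18.0% and 19.6% of all genes tested. The median was -0.03, and lay between -0.08 and 0.09 over the settings. Ligands moved in both directions. Bmp2 had 3.33 and 4.28 TPM in WT and 15.5 and 16.0 TPM in the double knockout (1.91 ± 0.26, adjusted p = 0.00513; held), and Bmp3 had 0.35 and 0.12 against 3.97 and 5.87 TPM (4.22 ± 0.47, adjusted p = 0.00371; held). Tgfb3 fell from 60.98 and 72.3 to 19.7 and 34.1 TPM (-1.44 ± 0.27, adjusted p = 0.0103; lost without WT replicate 2). Bmp4, at 11.5 and 13.9 against 14.3 and 12.01 TPM, did not pass. Some common targets of BMP signals fell. Id4 had 65.2 and 51.7 against 10.8 and 11.1 TPM (-2.55 ± 0.25, adjusted p = 0.00331; held), Id3 had 234 and 207 against 55.9 and 87.1 TPM (-1.78 ± 0.37, adjusted p = 0.0147; lost without either WT library or double knockout replicate 1), and the inhibitory Smad6 had 9.80 and 10.6 against 4.81 and 4.80 TPM (-1.22 ± 0.14, adjusted p = 0.00396; held). Id1, at 199 and 173 against 84.6 and 131 TPM, did not pass. Rises numbered 6, 5 and 6 and falls 6, 4 and 6 without WT replicate 1, WT replicate 2 and double knockout replicate 1.

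In the Notch pathway 9 of 33 genes rose and 4 fell (median 0.15), among them the receptor Notch2, with 7.81 and 8.84 against 24.8 and 19.3 TPM (1.27 ± 0.17, adjusted p = 0.00472; held). Notch rises numbered 3, 4 and 4 without WT replicate 1, WT replicate 2 and double knockout replicate 1, and no fall was left without either WT library. In the FGF and EGF pathways 14 of 41 rose and 6 fell (median 0.32). Rises included 2 genes for ligands of the EGF receptor, Hbegf at 15 and 14.7 TPM in WT and 52.8 and 58.8 TPM in the double knockout (1.77 ± 0.11, adjusted p = 0.00133; held) and Tgfa at 3.65 and 3.04 against 10.5 and 12.4 TPM (1.68 ± 0.24, adjusted p = 0.00556; held). Fgf2 fell from 17.4 and 16.8 to 4.53 and 2.30 TPM (-2.08 ± 0.44, adjusted p = 0.0146; lost without either WT library or double knockout replicate 2). FGF and EGF rises numbered 6, 5 and 9 without WT replicate 1, WT replicate 2 and double knockout replicate 1, and falls 0, 0 and 1.

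Across 20 families of transcription factors 279 genes were tested, of which 67 rose and 62 fell with a median of 0.12. Of all genes tested 18.0% rose and 19.6% fell, and no family was tested against these shares. Besides Dlx and Msx, single falls without a rise were seen in the Nfi (1 of 4) and LIM homeobox (1 of 5) families. More falls without a rise were seen in the E2F family (9 of 10), the Id, Hes and Hey family (7 of 12) and the Tead and Smad family (7 of 12). Without WT replicate 1, WT replicate 2 and double knockout replicate 1 these falls numbered 2, 2 and 2 in the E2F family, 3, 2 and 2 in the Id, Hes and Hey family and 3, 2 and 4 in the Tead and Smad family. Tead2, a partner of YAP, had 31.0 and 35.2 TPM in WT and 12.2 and 12.8 TPM in the double knockout (-1.48 ± 0.22, adjusted p = 0.00617; held). Rises without a fall were seen among the Kruppel-like factors (6 of 16), nuclear receptors (12 of 37), Irf and Stat factors (7 of 15) and Grhl and Ovol factors (3 of 5). Without the same libraries these rises numbered 4, 5 and 4, then 5, 3 and 5, then 4, 3 and 5, then 1, 1 and 1. Klf3 had 18.9 and 22.4 against 105 and 86.5 TPM (2.14 ± 0.24, adjusted p = 0.00386; held), and Irf5 had 5.39 and 3.96 against 17.5 and 17.2 TPM (1.75 ± 0.20, adjusted p = 0.00393; held). The total of rises was 29, 21 and 28, and of falls 27, 22 and 29, without WT replicate 1, WT replicate 2 and double knockout replicate 1.

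Genes of the circadian clock and of the response to glucocorticoids rose in 19 of 32 cases, with a median of 1.01. Nr1d1, a repressor within the clock, had 5.70 and 5.25 TPM in WT, 52.8 and 47.7 TPM in LEF1cKO and 64.0 and 92.3 TPM in the double knockout (3.70 ± 0.22, adjusted p = 0.00128). Tef, a clock output factor, had 13.2 and 11.5 TPM in WT, 52.5 and 48.3 TPM in LEF1cKO and 38.7 and 57.6 TPM in the double knockout (1.79 ± 0.23, adjusted p = 0.00459). These levels set both knockout groups apart from WT. Rora, an activator of the clock, had 2.43 and 1.79 against 32.6 and 22.1 TPM (3.77 ± 0.23, adjusted p = 0.00133), with 6.68 and 6.62 TPM in LEF1cKO. The labels used here give no hour of collection, and its part in these values was not tested. Tsc22d3, a gene induced by glucocorticoids, had 20.5 and 21.04 TPM in WT, 20.0 and 27.9 TPM in LEF1cKO and 73.5 and 83.0 TPM in the double knockout (1.76 ± 0.16, adjusted p = 0.00271). The only fall of the list was Hsd11b2, the enzyme that inactivates glucocorticoids, with 49.9 and 43.1 TPM in WT, 53.5 and 25.02 TPM in LEF1cKO and 0.42 and 1.10 TPM in the double knockout (-6.06 ± 0.59, adjusted p = 0.00331). The 5 calls held. Nr3c1, the glucocorticoid receptor, had 35.6 and 40.8 against 68.8 and 70.1 TPM (0.79 ± 0.15, adjusted p = 0.0115; lost without any 1 of the WT or double knockout libraries). Rises of the list numbered 9 and 7 without WT replicates 1 and 2.

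Some of the widest rises lay outside these lists. Igfbp3, a secreted binding protein of insulin-like growth factors, had 9.36 and 8.54 TPM in WT, 51.5 and 77.0 TPM in LEF1cKO and 274 and 278 TPM in the double knockout (4.79 ± 0.20, adjusted p = 0.000686). Skint5, Skint6 and Skint7, genes of a chromosome 4 cluster expressed in skin and thymus whose family founder selects epidermal T cells, rose together. Skint5 had 0.66 and 0.50 against 29.8 and 19.5 TPM (5.38 ± 0.32, adjusted p = 0.0013), and Skint7 had 0.84 and 0.58 against 36.3 and 41.5 TPM (5.65 ± 0.46, adjusted p = 0.00229). Members of this family are similar in sequence, so reads may have been split between them. Il22ra2, a soluble receptor that binds interleukin 22, had 0.39 and 0.45 against 11.6 and 14.0 TPM (4.79 ± 0.24, adjusted p = 0.000874), and the protease Mmp28 had 0.47 and 0.27 against 13.5 and 10.8 TPM (4.98 ± 0.51, adjusted p = 0.0034). All calls of this paragraph to here held. Pyy, a gut peptide hormone, had 4 and 0 expected counts in WT and 125 and 311 in the double knockout (adjusted p = 0.00614; held). Of the fall side, Prss35, a secreted protease-like protein, had 80.4 and 80.5 against 3.87 and 4 TPM (-4.49 ± 0.25, adjusted p = 0.00108; held).

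Genes of interferon response and antigen presentation rose in 19 of 46 cases and none fell (median 1.22). Cd74, the chaperone of MHC class II, had 66.7 and 27.3 TPM in WT, 105 and 198 TPM in LEF1cKO and 548 and 536 TPM in the double knockout (3.39 ± 0.48, adjusted p = 0.0055; held). H2-Eb1, a class II chain, had 20.3 and 10.3 against 189 and 183 TPM (3.47 ± 0.38, adjusted p = 0.00357; held). The class I gene H2-K1, at 550 and 526 against 1184 and 1490.0 TPM, did not pass. Class II genes are typical of antigen-presenting cells, and 3 of them (Cd74, H2-Aa and H2-Ab1) also stand in the immune list given above, whose sum moved the same way. Rises numbered 8, 6, 7 and 8 without each WT and then each double knockout library in turn.

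Keratinocyte wound genes gave 15 rises and 3 falls of 39 (median 1.32). Il1rn, which blocks the interleukin 1 receptor, had 5.21 and 4.33 TPM in WT and 39.1 and 32.3 TPM in the double knockout (2.55 ± 0.14, adjusted p = 0.00108; held). Of the wound keratins, Krt6a, at 157 and 166 against 116 and 146 TPM, and Krt16, at 115 and 94.5 against 132 and 318 TPM, did not pass, and Krt17 fell from 2342 and 2435 to 1520.0 and 1769 TPM (-0.68 ± 0.19, adjusted p = 0.0332; lost without any 1 of the WT or double knockout libraries). Of 36 immediate early and stress genes 10 rose and 3 fell. The falls were heat shock genes, with Hspa1a at 698 and 836 TPM in WT, 244 and 137 TPM in LEF1cKO and 202 and 143 TPM in the double knockout (-2.30 ± 0.34, adjusted p = 0.00599; held). Hspa1a and Hspa1b are near-identical copies, so the split between them is uncertain. Hspb1, at 696 and 757 against 662 and 754 TPM, did not pass. Rises of the wound list numbered 9, 4, 8 and 8 without each WT and then each double knockout library in turn, and those of the stress list 3, 4, 7 and 4.

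Sebaceous and lipid genes rose in 12 of 35 cases and fell in 4 (median 1.34), and the double knockout libraries differed. Scd1, a desaturase of sebocytes, had 129 and 115 TPM in WT and 1148 and 379 TPM in the double knockout (2.5 ± 0.71, adjusted p = 0.0363; lost without either WT library or double knockout replicate 1), and 96.1 and 351 TPM in LEF1cKO. The summed level of the list was 1882 and 1667 TPM in WT and 5487 and 2927 TPM in the double knockout. Dgat2, an enzyme of triglyceride synthesis, had 8.23 and 6.90 against 57.4 and 42.3 TPM (2.58 ± 0.23, adjusted p = 0.00271; held), while the desaturase Fads2 fell from 29.2 and 27.1 to 10.1 and 7.97 TPM (-1.78 ± 0.25, adjusted p = 0.00553; held). The fat gene Fabp4, at 4.92 and 3.15 against 62.3 and 5.34 TPM, and the haemoglobin gene Hbb-bt, at 1.41 and 0.24 against 77.6 and 0.65 TPM, were high in replicate 1 only, and their part in the lipid genes was not tested. Only 3 members rose without either WT library in turn or without double knockout replicate 1. Of 31 genes of cholesterol synthesis and homeostasis 4 rose (12.9%) and none fell, against 18.0% and 19.6% of all genes tested. Those that rose were Abcg1, Abca1, Scap and Pmvk, of which only Pmvk encodes an enzyme of synthesis. Without double knockout replicate 2 there were 10 rises, but 1 without WT replicate 1, WT replicate 2 or double knockout replicate 1.

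Energy metabolism gave 10 rises and 20 falls of 48 (median -0.24), and the falls numbered 2, 2 and 7 and the rises 4, 2 and 7 without WT replicate 1, WT replicate 2 and double knockout replicate 1. Cox5a, a subunit of respiratory complex IV, had 281 and 302 TPM in WT and 172 and 192 TPM in the double knockout (-0.82 ± 0.11, adjusted p = 0.00475; held), and the lactate transporter Slc16a3 had 1.66 and 2.64 against 12.02 and 21.3 TPM (2.66 ± 0.38, adjusted p = 0.00556; held). Transcripts of the mitochondrial genome made up 5.24% and 5.14% of TPM in WT and 7.13% and 6.48% in the double knockout. Genes of the p53 response and apoptosis gave 7 rises and 5 falls of 32 (21.9% and 15.6%), near the 18.0% and 19.6% of all genes tested. The rises of that list numbered 1, 1, 4 and 4 without each WT and then each double knockout library in turn.

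Some of the widest falls were in genes with near-identical copies. Of 150 falls of 5 or more on the log2 scale 88 were pseudogenes and 48 protein-coding, and in 112 the LEF1cKO mean was also under 10% of WT. Eno1b had 148 and 142 TPM in WT, 0.42 and 0.77 TPM in LEF1cKO and 0 and 0.89 TPM in the double knockout, and it is a near-identical copy of Eno1. Reads of such copies are assigned by the authors' model, and the histone genes Hist1h2ai and Hist1h4m, listed at 0 in both double knockout libraries, are of the same kind.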

How the data were processed

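RNA was sequenced from sorted mouse hair germ cells in 6 libraries, 3 groups of 2. Per the labels' protocols, RNA integrity numbers exceeded 8 and mRNA libraries were sequenced from both ends on an Illumina HiSeq. Bowtie2 2.2.9, RSEM 1.2.30 and build mm10 are named in the submitters' processing notes, whereas annotation release and strand setting are not stated there. Deposited expected counts are RSEM's gene estimates, made by the authors and not normalized, in which ambiguous reads are divided among genes. Deposited TPM values, also RSEM output of the authors, served for levels only.

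The 92 spike-in rows held no counts and were dropped. Of 46517 genes, 46005 (98.9%) were matched to GENCODE M21 for positions and biotypes. Rounded expected counts of all 6 libraries, which share 1 estimate of the spread, were fitted with edgeR 4.0.16 in R 4.3.3 (TMM factors 0.962 to 1.04, filterByExpr by group, quasi-likelihood test, Benjamini-Hochberg threshold 0.05). The fit left 3 residual degrees of freedom, a biological coefficient of variation of 0.232 and 3.11 prior degrees of freedom. The test was checked on simulated data. A count of 0 allows up to 3 counts, by counting error only.

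The comparison, the 33 gene lists (1154 of 1156 symbols found) and the 20 transcription factor families were chosen with earlier results of these data known. Genes named were Lef1, Tcf7, the 15 largest rises and 15 largest falls among annotated protein-coding genes whose groups did not overlap and whose higher group averaged at least 5 TPM, up to 4 per list and direction under the same floor (or, where none passed, the 2 most abundant), 12 per direction over the transcription factors, the 10 most abundant genes in WT, and list members chosen for their role. Not all are printed. Lists are described by counts and medians, with no test of the list. Promoters came from a RefSeq table.

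The alternatives comprised DESeq2 1.42.0, limma 3.58.1 with voom or on log2(TPM + 1) and log2(TPM + 0.1), normalization by RLE or by library size alone, filtering at 10 CPM in 2 libraries or not at all, a fit of only the 4 libraries compared, the replicate number as a block, and leaving out each library, where the lone sample of a group is assumed to vary like the others.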

Additional observations from a re-analysis of the deposited data

How the results depend on the processing

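The counts of 3540 rises and 3849 falls stayed within 1.5 times under other normalizations, filters and tools, and with only the 4 libraries compared. With each library left out in turn, rises ranged from 958 to 3982 and falls from 1010 to 4392, lowest without WT replicate 2. With the replicate block there were 3140 rises and 3295 falls. Deviations of same-numbered samples correlated at 0.0558, -0.0421 and -0.0276, so no pairing by number was seen. With 2 libraries a group, these values cannot exclude that same-numbered samples were handled together. The share of calls that rose was 47.9%, and 57.3% and 57.2% with limma on log2(TPM + 1) and log2(TPM + 0.1), which gave 3816 and 3797 rises and 2849 and 2840 falls. The latter moved the median of all genes to 0.131, and 5 of 7389 called genes changed sign there, none of them in a list. Of 340 genes considered for naming, 298 were called and 166 kept the call with each library left out; 113 lost it without WT replicate 2, 91 without WT replicate 1, 90 without double knockout replicate 1 and 45 without double knockout replicate 2. The log2 fold change of Car3, which did not pass, went from 5.92 to -7.69 without double knockout replicate 1 and lay between -7.69 and 6.91 over the libraries left out, having 2541 expected counts in that library and 0 in the other. Depth limits genes near 0 counts, whose fold changes depend on the fitting.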
